A study of Homo sapiens with 8 samples.

Results

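HepG2, a human liver tumour line that keeps many hepatocyte features, was profiled here in the state it had before any test compound was added. The samples were chosen by their label alone: the 3 arrays of HepG2 cells kept for 4 h in DMSO, the solvent control, out of 8 arrays in all. The DMSO arrays were compared with 2 arrays of cells given JQ1 at 500 nM and 3 arrays of cells given RVX-208 at 5000 nM, both inhibitors of the BET family of chromatin-binding proteins. All cells were of the same line, were harvested at 4 h and contained 0.1% DMSO, so the DMSO group is a solvent control and not an untreated culture. Another JQ1 sample, which the design text mentions, was not analysed here. Array numbers in the labels do not say whether the arrays of a group came from separate cultures, so every error and p-value below measures the spread between these arrays, which may be technical.

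RNA was read on Human Gene 1.0 ST arrays, which hold several probes for each gene, and each gene has a single log2 signal per array, so that 1 unit is a doubling. For 17845 genes the mean log2 signal over the 3 DMSO arrays was ranked from the highest. Probes of different genes bind with different strength, so an order between genes describes signals and is not an order of RNA copies. The distribution of signals was alike in the DMSO arrays, with medians of 7.30, 7.31 and 7.31, and the arrays correlated pairwise at 0.9962 to 0.9968 across genes. The number of arrays, not a count of molecules, limits the precision. Over the 17845 genes the median of the means was 7.34, the highest 10% (1784) started at 10.28, and the highest 1% (178) started at 12.16.

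The adult hepatocyte exports most of the proteins of blood plasma, makes bile acids from cholesterol, turns ammonia into urea, stores and releases glucose, and oxidises drugs with cytochrome P450 enzymes. The fetal liver shares the plasma proteins but makes alpha-fetoprotein and growth-promoting RNA-binding proteins that fall silent after birth. Liver tumours often switch such fetal genes on again, and many carry a Wnt pathway that is always on. HepG2 is widely used as a laboratory model of the hepatocyte.

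The albumin family was uneven: related genes on the same strand of chromosome 4 stood far apart in the ranking, so their promoters are shown first. ALB encodes serum albumin, AFP encodes alpha-fetoprotein, its fetal counterpart, and AFM encodes afamin, a vitamin E binding protein of plasma. The 250 bases before the start of each gene are printed from RefSeq (GRCh38.p14) for ALB (chr4:73404037-73404286, + strand), AFP (chr4:73435971-73436220, + strand) and AFM (chr4:73481495-73481744, + strand), with those of MKI67 (chr10:128126424-128126673, - strand), the proliferation marker Ki-67, for contrast. Capitals mark TATAAA on the gene's own strand, the TATA box, GTTAAT on either strand, a motif of liver-enriched homeodomain factors, and GGGCGG on either strand, the GC box.
ALB: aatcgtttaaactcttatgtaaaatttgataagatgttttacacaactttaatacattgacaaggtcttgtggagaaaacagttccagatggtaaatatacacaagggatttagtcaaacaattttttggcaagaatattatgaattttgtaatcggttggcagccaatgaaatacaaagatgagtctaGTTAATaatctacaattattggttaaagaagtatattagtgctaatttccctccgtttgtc
AFP: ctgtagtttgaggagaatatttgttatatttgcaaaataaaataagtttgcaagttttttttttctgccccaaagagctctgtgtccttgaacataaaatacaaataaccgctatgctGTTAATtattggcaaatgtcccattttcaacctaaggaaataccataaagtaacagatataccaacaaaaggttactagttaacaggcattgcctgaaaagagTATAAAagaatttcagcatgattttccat
AFM: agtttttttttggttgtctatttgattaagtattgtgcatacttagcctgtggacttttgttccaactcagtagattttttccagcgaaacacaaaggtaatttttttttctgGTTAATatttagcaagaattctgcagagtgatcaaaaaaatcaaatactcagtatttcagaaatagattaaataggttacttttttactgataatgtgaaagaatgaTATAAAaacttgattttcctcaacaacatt
MKI67: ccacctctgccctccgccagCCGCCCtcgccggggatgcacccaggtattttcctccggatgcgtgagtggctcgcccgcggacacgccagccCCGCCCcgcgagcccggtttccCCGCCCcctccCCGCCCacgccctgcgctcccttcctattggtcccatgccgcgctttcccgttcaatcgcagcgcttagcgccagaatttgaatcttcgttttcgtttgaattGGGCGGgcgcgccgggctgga

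ALB and AFP were the hepatocyte markers used to check the line, and both were far above background. The ALB signal was 13.40, 13.46 and 13.41 in the 3 DMSO arrays, rank 9 of all genes. The AFP signal was 12.92, 12.94 and 12.92, rank 41. AFM gave 4.99, 4.74 and 4.83, rank 15347, below the background limit in every DMSO array. The promoters do not separate them by these letters: GTTAAT starts at position -61 from the ALB start, at -132 for AFP and at -137 for AFM, and both AFP and AFM carry TATAAA. A further marker set for the check is not analysed here.

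Over the ranked genes, 13865 of 17845 (77.70%) matched a RefSeq promoter. GTTAAT occurred in 17 of 63 promoters of the plasma protein lists described below (26.98%) and in 702 of all 13865 (5.06%). TATAAA occurred in 11 of the 63 (17.46%) against 6.27% of all promoters. GGGCGG occurred in 12 of the 63 (19.05%) against 56.44%, while 17 of 23 promoters of replication and mitosis genes held it and 0 of the 23 held GTTAAT. The other searched motif, CAAAGT on either strand, a nuclear receptor motif, was in 14 of the 63 (22.22%) against 8.31%. The plasma protein promoters were poorer in G and C, with a mean of 49.25% against 61.08%, and the part of base composition in these shares was not tested. Among the 8 plasma protein promoters of genes at background, 3 held GTTAAT, so the motif was also found in promoters of genes without signal above the limit. The 200 highest genes, of which 164 had a promoter, carried GTTAAT in 10 (6.10%) and GGGCGG in 110 (67.07%).

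Background was set from genes that a liver cell line has no known use for. In each array the limit was the 95th percentile of 335 olfactory receptor genes, the odour sensors of the nose, and it lay at 5.99, 5.99 and 6.10. A gene was called above background when all 3 DMSO arrays exceeded their own limit, and 12236 of 17845 genes (68.6%) did. At background in all 3 arrays were 4997 genes, and 612 were split. Keratin-associated protein genes, which build hair, did not behave like the olfactory receptors: 34 of 65 were above that limit. A stricter limit, the 95th percentile of those 65 genes (8.20, 8.25 and 8.44), was therefore added after the data were seen, and 5951 genes (33.3%) exceeded it. Both counts are given for each programme, to be read beside these shares of 68.6% and 33.3% of all genes. A statement that rests on the looser limit alone concerns weak signals.

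**Figure D1:**
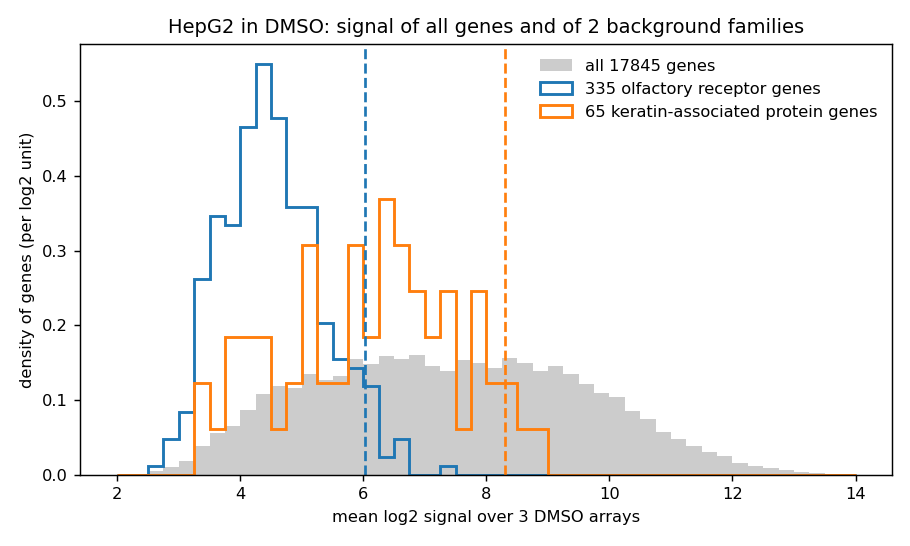
Density of genes by mean log2 signal over the 3 DMSO arrays, for all 17845 genes (grey), 335 olfactory receptor genes (blue outline) and 65 keratin-associated protein genes (orange outline). Dashed lines mark the mean over arrays of the olfactory receptor limit and of the stricter limit; much of the keratin-associated family lies between the olfactory receptor bulk and the stricter limit.

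A probe set at background does not show that a gene is silent. APOA1 makes the main protein of high-density lipoprotein, which HepG2 is known to secrete, yet its signals were 5.06, 4.05 and 5.31, all below the limit and more spread than those of most genes. The probe set assigned to RPS3A, a ribosomal protein gene of every cell, gave 5.78, 5.64 and 5.54. Whether this probe set reads RPS3A itself or a related copy was not tested. In all, 56 of 61 cytosolic ribosomal protein genes were above background. Low signals are therefore given below as signals at background, never as absence.

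The 25 highest genes mixed the machinery of any growing cell with secreted liver proteins and fetal genes. GAPDH of glycolysis stood first at 13.86, followed by the linker histone H1-4 at 13.74, the tubulin gene TUBB at 13.66, the chaperone gene HSPA8 at 13.64 and the actin gene ACTG1 at 13.59. The plasma protein genes among them were APOB, the scaffold of very-low-density lipoprotein, at 13.44 (rank 7), ALB, APOA2 of high-density lipoprotein at 13.41 (rank 10), ITIH2, a hyaluronan-binding protein chain, at 13.40 (rank 12), and TF, the iron carrier transferrin, at 13.23 (rank 20). The fetal genes among them were PEG10, an imprinted gene derived from a retrotransposon, at 13.28 (rank 15) and GPC3, the cell-surface proteoglycan glypican-3, at 13.26 (rank 16). LYZ, the antibacterial enzyme lysozyme, stood at 13.19 (rank 22) and SLC2A1, the glucose transporter GLUT1, at 13.16 (rank 25). The rest were ENO1, DAD1, ACTB, UBB, TMSB10, EEF1G, the ribosomal protein genes RPL8, RPL18, RPS2 and RPL3, and RPL13AP5, whose sequence is a copy of another ribosomal protein gene, so that its signal may be shared. Of these 25, 24 were also among the 25 highest of each DMSO array taken alone.

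Genes of plasma proteins and lipoprotein handling were the strongest liver programme of the line. In the 4 lists of carriers, apolipoproteins, coagulation factors and complement or acute phase proteins, 67 of 80 genes were above background and 47 above the stricter limit. Their median signal was 9.83, against 7.34 for all genes, and 36 of the 80 were in the highest 10% of genes. These 80 include MTTP, SCARB1 and ABCA1 of lipoprotein handling, whose proteins are not exported into plasma. Carrier proteins led, with a median of 11.64 and 15 of 16 above background. After ALB, TF and AFP came AMBP, the precursor of the plasma protein bikunin, with 12.76, 12.66 and 12.70, and AHSG, fetuin-A, with 12.59, 12.66 and 12.62. The lower end held HPX, the haem carrier hemopexin, at 7.54, FETUB at 6.43 and AFM. These 3 were the only members below the stricter limit.

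Among genes of lipoproteins, 12 of 16 were above background and 9 above the stricter limit. APOB gave 13.40, 13.50 and 13.41, and APOA2 gave 13.40, 13.46 and 13.37. APOH, a phospholipid-binding protein, was at 12.97 and APOE, the ligand that returns remnants to the liver, at 11.22. At the lower end stood CETP, the cholesteryl ester exchanger, at 6.04 and APOA4 at 5.98, both split around the limit, with LPA, the apolipoprotein(a) gene, at 5.56 and APOA1 at background. The signals thus covered the assembly of very-low-density lipoprotein, with MTTP, which loads lipid onto APOB, at 10.64.

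Coagulation genes were above background in 18 of 22 cases and above the stricter limit in 14. The highest were SERPIND1, heparin cofactor II, at 12.48, FGA, a fibrinogen chain, at 12.22, PROC, the anticoagulant protein C, at 11.80 and FGB at 11.35. The 3 fibrinogen chains FGA, FGB and FGG, which are assembled into a single protein, were all in the highest 10% of genes. F9, the clotting factor missing in haemophilia B, gave 3.29, 3.50 and 3.46. HRG at 4.39, F13B at 4.48 and KLKB1, plasma prekallikrein, at 4.82 were also below the limit in every array.

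Complement and acute phase genes were more uneven. Above background were 22 of 26, but only 11 exceeded the stricter limit, and the median of 7.68 was near that of all genes. ITIH2 at 13.40, the central complement protein C3 at 13.02, SERPINA3 at 12.30 and ITIH3 at 10.67 were the highest. ITIH1, whose protein is a partner chain of ITIH2, was only at 6.26 and ITIH4 at 6.36. Terminal complement genes C6 and C9 were both at 4.33, CRP, the C-reactive protein of inflammation, at 4.84 and LBP at 5.31, below the limit in every DMSO array. These members at background stood beside strong signals of C3 and SERPINA3.

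**Figure D2:**
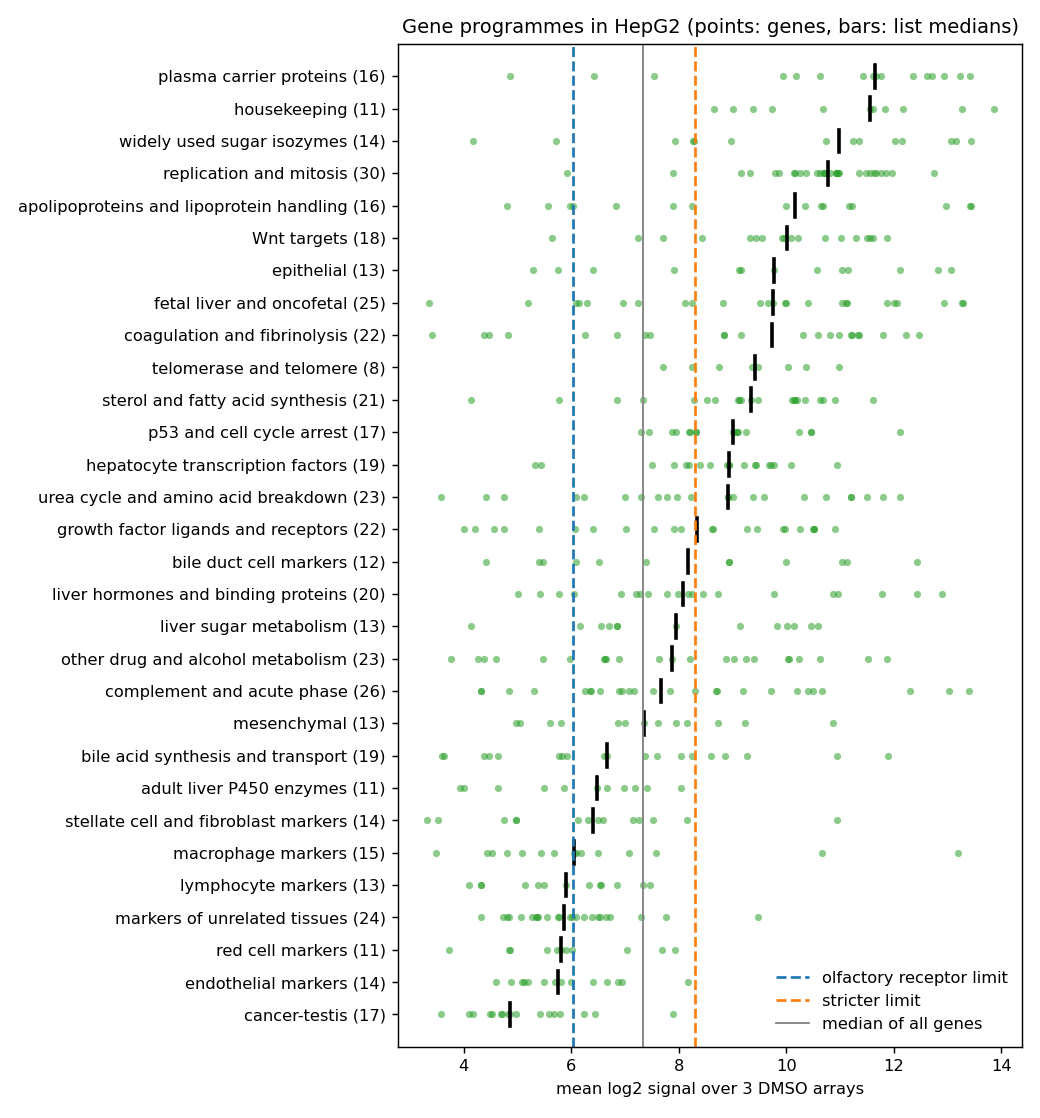
Mean log2 signal over the 3 DMSO arrays of each gene (green points) in 30 gene lists, with list sizes in brackets and lists ordered by their median (black bars). Dashed lines mark the 2 background limits and the grey line the median of all genes; plasma carriers (median 11.64) lie at the top and cancer-testis genes (4.86) at the bottom.

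Transcription factors that keep hepatocyte identity gave moderate signals: 17 of 19 were above background, 12 above the stricter limit, with a median of 8.93. FOXA1, which opens liver enhancers, was the highest at 10.95, then CEBPA, a driver of hepatocyte maturation, at 10.09, GATA4 of endoderm development at 9.78 and CEBPB at 9.71. NR1I3, the drug sensor CAR that switches on drug-oxidising genes, gave 5.25, 5.40 and 5.31, and NR5A2, a regulator of bile acid genes, gave 5.61, 5.22 and 5.50. These were the only members below the limit in every DMSO array.

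Cytochrome P450 enzymes of adult liver, not all of which act mainly on drugs, were the weakest hepatocyte programme. Of 11 genes, 6 were above background and 0 above the stricter limit, with a median of 6.48. CYP4F3 was the highest at 8.05, with CYP2J2 at 7.42, CYP3A5 at 7.19 and CYP4V2 at 6.97. CYP3A4, the main drug-oxidising enzyme of adult liver, gave 3.87, 4.23 and 3.72, rank 17058. CYP2C8 was at 4.00, CYP2B6 at 4.64, CYP4A11 at 5.50 and CYP2E1, the ethanol-induced form, at 5.87, each below the limit in all 3 arrays.

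Other enzymes that handle drugs and alcohol were divided. Of 23 genes, 17 were above background (73.9%, against 68.6% of all genes) and 10 above the stricter limit (43.5%, against 33.3%). The carboxylesterase CES1 was at 11.87, the aldehyde dehydrogenase ALDH2 at 11.51, the epoxide hydrolase EPHX1 at 10.63 and ADH6 at 10.24. The classical alcohol dehydrogenases ADH1B at 4.27 and ADH1C at 4.61 were at background, as were UGT2B17 at 3.77, which adds glucuronic acid to steroids, and NAT2 at 4.37, which acetylates drugs. ADH1A, ADH1B and ADH1C are closely similar copies, so their signals are uncertain. The ADH1 genes carry out the step of ethanol oxidation before that of ALDH2.

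Genes of amino acid breakdown and those of the urea cycle both lay on both sides of the limits. In the joint list 19 of 23 genes were above background and 12 above the stricter limit, with a median of 8.91. HPD of tyrosine breakdown gave 12.11, 12.17 and 12.07, GLDC of glycine breakdown 11.80 on average, GLUL, glutamine synthetase, 11.51 and HGD 11.21. Of the urea cycle enzymes CPS1, which starts the cycle, at 9.38, ASS1 at 10.32 and ASL at 8.91 were above the stricter limit in every array. OTC, which makes the citrulline that ASS1 uses, gave 4.45, 4.33 and 4.49, and ARG1, the arginase that releases urea, gave 4.84, 4.60 and 4.83. TDO2, which opens the tryptophan ring, was the lowest at 3.57. UROC1 at 6.10 was split around the limit.

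Sugar genes were high for many isozymes that other tissues use as well. Of the liver list 12 of 13 were above background and 6 above the stricter limit, with a median of 7.94. Of the list of widely used isozymes and transporters 12 of 14 and 9 were, with a median of 10.99. ENO1 at 13.44, SLC2A1 at 13.16, LDHA, which makes lactate, at 13.06 and the pyruvate kinase PKM at 12.16 were its highest members. The liver list was led by PCK2 at 10.60, the glycogen phosphorylase PYGL at 10.45, the fructose-using KHK at 10.14 and SLC2A2, the liver glucose transporter GLUT2, at 10.01. Its lowest members were GYS2, liver glycogen synthase, at 4.14, FBP1 of glucose synthesis at 6.16, PCK1, the cytosolic partner of PCK2, at 6.55 and GCKR at 6.71. In the other list LDHB gave 4.41, 4.15 and 3.98 and HK1 was at 5.71, both at background. HK2, the hexokinase of many tumours, gave 11.39, 11.11 and 11.20.

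Bile acid genes of both synthesis and transport lay on both sides of the limits. Of 19 genes, 11 were above background (57.9%, against 68.6% of all genes) and 5 above the stricter limit (26.3%, against 33.3%). Their median was 6.67. CYP7A1, the rate-limiting enzyme of the classical route, gave 4.56, 4.42 and 4.93. CYP27A1, which starts the alternative route, gave 10.95, 10.97 and 10.90, so CYP7A1 and CYP27A1 stood on opposite sides of both limits. Among transporters ABCC2, which exports conjugates into bile, was at 11.88, while ABCB11, the bile salt export pump, was at 4.48. The uptake carriers SLCO1B1 at 3.60 and SLCO1B3 at 3.63 were at background, SLC10A1, the main bile acid importer, was split at 5.93, and SLCO2B1 at 9.27 was above the stricter limit. AKR1C4, at 4.38, was also at background.

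**Figure D3:**
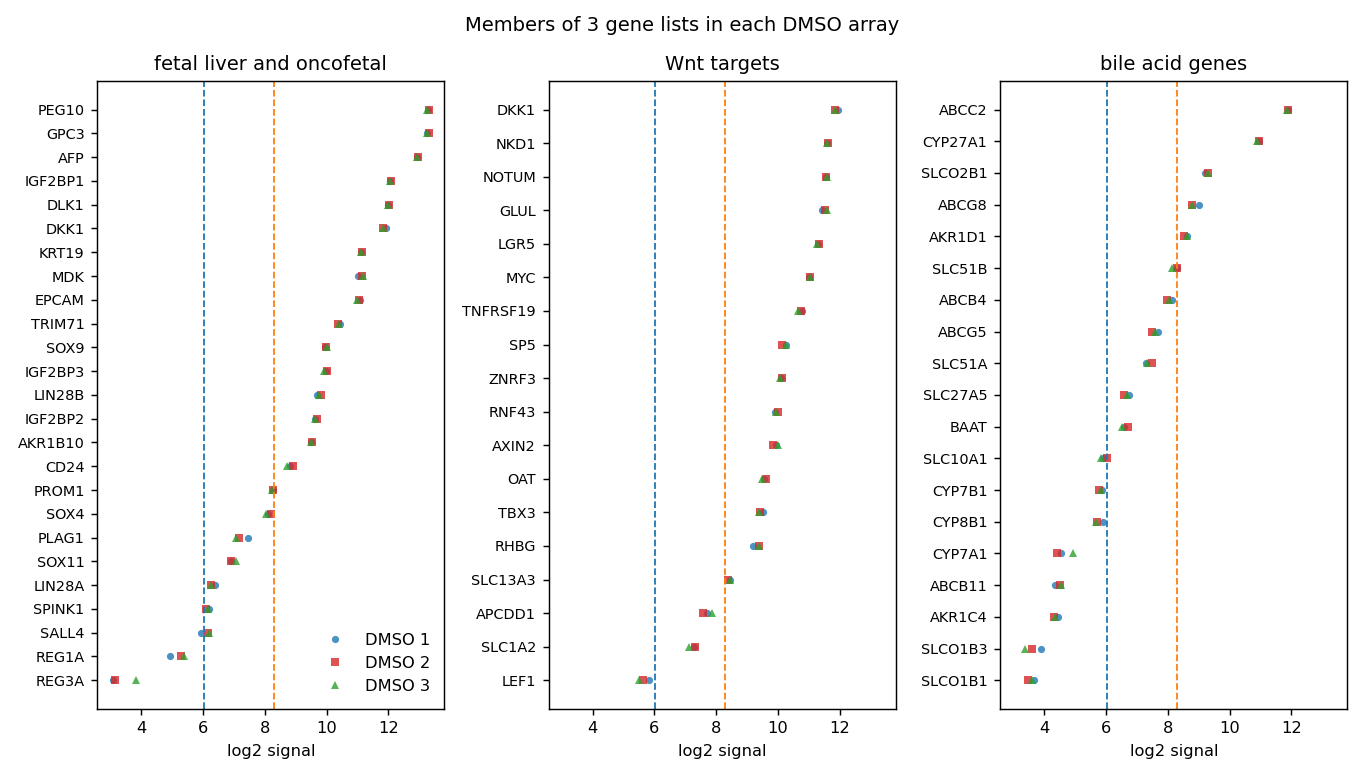
Log2 signal of each member of the fetal and oncofetal, Wnt target and bile acid lists in DMSO arrays 1 (circles), 2 (squares) and 3 (triangles), ordered by mean. Blue and orange dashed lines mark the background limit and the stricter limit; symbols of the strongest genes overlap, whereas REG3A and CYP7A1 at background differ between arrays.

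Hormones and binding proteins of liver had 16 of 20 genes above background and 8 above the stricter limit. AGT, the precursor of angiotensin, was at 12.90, SELENOP, the selenium carrier, at 12.44, the stress hormone GDF15 at 11.77 and IGFBP4 at 10.97. IGF1, the growth factor that adult liver releases, gave 4.78, 5.17 and 5.10, FGF21 was at 5.43 and HJV at 5.77, all at background, with FGF19 split at 6.06. EPO, erythropoietin, which fetal liver makes before the kidney takes over, gave 8.76, 8.64 and 8.79, above the stricter limit in every array. The sterol and fatty acid synthesis list had 19 of 21 genes above background and 16 above the stricter limit, led by ACLY, which makes acetyl-CoA for lipids, at 11.62, SQLE at 10.91, MSMO1 at 10.68 and FASN, fatty acid synthase, at 10.63. ME1 at 4.15 and INSIG1 at 5.78 were its members at background, with CYP51A1 at 6.86 and PMVK at 7.33 next.

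Fetal and oncofetal genes were among the strongest signals of the line. Of 25 genes, 22 were above background and 16 above the stricter limit, with a median of 9.75, and 10 were in the highest 10% of all genes. PEG10 gave 13.29, 13.31 and 13.26, and GPC3, a diagnostic antigen of liver cancer, gave 13.24, 13.30 and 13.24. IGF2BP1, an RNA-binding protein of fetal growth, gave 12.06, 12.07 and 12.06, rank 211. These signals differed by less than 0.1 between arrays, and IGF2BP1 had an SD of 0.008. DLK1, an imprinted antagonist of Notch made by fetal hepatoblasts, was at 11.99 and DKK1, a secreted Wnt inhibitor, at 11.86.

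The fetal list was not uniformly high. LIN28B, which blocks maturation of let-7 miRNAs, was at 9.75, while its paralogue LIN28A was at 6.30, above the looser limit alone. SALL4, a stem cell factor of aggressive liver tumours, gave 5.94, 6.16 and 6.20 and was split. SPINK1, a secreted trypsin inhibitor, was at 6.15. REG1A at 5.20 and REG3A at 3.36, secreted lectins that mark some liver tumours with Wnt mutations, were at background.

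Wnt target genes were high as a group: 17 of 18 were above background and 15 above the stricter limit, with a median of 10.02. In normal liver several of these genes, GLUL and AXIN2 among them, are active in hepatocytes around the central vein. DKK1 gave 11.93, 11.83 and 11.83, NKD1, an inhibitor of the pathway, 11.59, 11.63 and 11.60, and NOTUM, an enzyme that inactivates Wnt ligands, 11.55, 11.55 and 11.58. GLUL gave 11.42, 11.53 and 11.57. Feedback inhibitors of the pathway were thus among the highest members. LGR5, a receptor of Wnt-dependent stem cells, was at 11.29. The lowest were LEF1, a Wnt-responsive transcription factor of lymphocytes and many tumours, at 5.65 and at background, the glutamate carrier SLC1A2 at 7.24, APCDD1 at 7.71 and SLC13A3 at 8.43.

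The replication and mitosis list was nearly complete, as 29 of 30 genes were above background and 28 above the stricter limit, with a median of 10.77 and 21 in the highest 10%. PLK1, a mitotic kinase, gave 12.75, 12.76 and 12.73. TYMS, which makes thymidylate, was at 11.97, the replication helicase subunit MCM3 at 11.86 and the spindle kinase AURKA at 11.76. BIRC5, survivin, gave 5.96, 5.82 and 5.99 and was the member at background, with CCNE2 at 7.89, MCM6 at 9.15 and CDK1 at 9.33 next above it. All 17 genes of the p53 and cell cycle arrest list were above background and 9 above the stricter limit. MDM2, a p53 target that degrades p53, was at 12.11, CDKN1B at 10.46, BAX at 10.46 and RB1 at 10.23. CDKN2A and CDKN2B, neighbours often deleted in tumours, were at 7.29 and 7.44, above the looser limit and below the stricter one in every array.

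Growth factor receptors held the top of their list. Of 22 genes, 17 were above background and 11 above the stricter limit. IGF2R was at 10.90, FGFR3 at 10.52, FGFR4, the hepatocyte receptor of bile acid hormone FGF19, at 10.51 and IGF1R at 10.49. The ligands HGF at 4.21 and EGF at 4.56 and the receptors KIT at 4.00 and PDGFRA at 4.75 were at background. All 8 telomere genes were above background and 6 above the stricter limit. TERT, the catalytic subunit of telomerase, gave 8.21, 8.28 and 8.25, close to that limit and above it in 2 of 3 arrays. TERC, its RNA template, was at 9.47, NOP10 at 10.98, DKC1 at 10.36, TERF1 at 10.03 and NHP2 at 9.36, while TERF2 at 8.75 and POT1 at 7.71 were the lower telomere binders.

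Cancer-testis genes, germline genes that many tumours switch on, were the programme with the lowest median, 4.86. Above background were 3 of 17, and 0 exceeded the stricter limit. The 3 were CTCFL at 7.90, ACTL8 at 6.45 and TEX15 at 6.23. The antigen gene MAGEA1 was at 5.80, and SYCP1 of meiosis, BRDT, the testis member of the BET family, SSX1 and DDX43 were the lowest, from 3.58 to 4.50.

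Epithelial genes gave strong signals beside a few mesenchymal genes. Epithelial genes were above background in 11 of 13 cases and above the stricter limit in 9. The simple keratins KRT8 and KRT18 were at 13.06 and 12.82, the tight junction gene CLDN1 at 12.12 and the desmosome gene DSP at 11.15. GRHL2 at 5.30 and OVOL1 at 5.75, regulators of many other epithelia, were at background, with CGN at 6.41 and CLDN3 at 7.91 above it. Of mesenchymal genes 9 of 13 were above background (69.2%, against 68.6% of all genes) and 3 above the stricter limit (23.1%, against 33.3%). These 3 were CDH2, the N-cadherin that hepatocytes also carry, at 10.86, SPARC at 9.23 and ZEB1 at 8.72. VIM, the mesenchymal filament vimentin, gave 5.07, 5.03 and 4.85, with ZEB2 at 5.04, PRRX1 at 5.60 and SNAI2 at 5.81 also at background.

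Markers of stellate cells and macrophages were mostly weak and those of bile ducts mixed, with exceptions that belong to more than 1 cell type. Above background were 9 of 12 bile duct, 9 of 14 stellate and 6 of 15 macrophage markers, against 68.6% of all genes. Bile duct markers were above the stricter limit in 6 of 12 genes, led by SPP1, osteopontin, at 12.43, KRT19 at 11.12, EPCAM at 11.03 and SOX9 at 9.99, which fetal liver progenitors share and of which 3 also stand in the oncofetal list. CFTR, the chloride channel of bile ducts, gave 4.43, 4.42 and 4.41, AQP1 was at 5.41 and SCTR, the secretin receptor, at 5.48. Of stellate cell and fibroblast markers 1 of 14 exceeded the stricter limit, RELN at 10.94. LUM at 3.32, DCN at 3.52, LRAT at 4.97 and PDGFRA, whose signal is given above, were among the 5 stellate cell and fibroblast markers at background. Of macrophage markers 2 of 15 exceeded it, LYZ and the lysosomal gene CD68 at 10.67. PTPRC, the gene of CD45 on all white cells, gave 3.34, 3.64 and 3.50, with CD163 at 4.44 and MRC1 at 4.54.

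Lists of cells that a pure line should not hold gave 0 genes above the stricter limit for 14 endothelial, 13 lymphocyte and 11 red cell markers. Between 27.3% and 46.2% of them were above the looser limit, and the highest were PECAM1 at 8.17, NKG7 at 7.46 and HBQ1 at 7.92. Of 24 markers of unrelated tissues, 9 were above the looser limit and 1, the skeletal muscle actin gene ACTA1 at 9.48, above the stricter one. ACTA1 is closely related in sequence to other actin genes, of which ACTB and ACTG1 were among the 25 highest, and a share of their signal in its probes was not tested. All 11 housekeeping genes exceeded both limits, with a median of 11.56.

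Larger gene families followed the same order. Of translation factor genes 59 of 60 were above background and of proteasome subunit genes 35 of 37. Histone genes were in 49 of 66 cases (74.2%), near the 68.6% of all genes. Of microRNA gene entries 45 of 174 and of taste receptor genes 3 of 26 were above background. In the highest 1% stood 17 of 61 ribosomal protein genes. Zinc finger genes of the ZNF series were above background in 323 of 464 cases (69.6%, near the share of all genes), with 2 in the highest 10% and a median of 7.15.

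The DMSO arrays differed little for most genes. The SD over the 3 arrays had a median of 0.080 for all genes, 0.068 above background and 0.114 at background. Array 1 was the farthest from the other pair for 34.6% of all genes, array 2 for 27.6% and array 3 for 37.7%, and for 34.6%, 25.6% and 39.8% of genes above background. Array 3 also correlated least with the treated arrays, at 0.9934 to 0.9946 with RVX-208 against 0.9951 to 0.9960 for arrays 1 and 2, and had 5962 genes above its stricter limit against 6737 and 6578. The part of array 3 in the results was not tested beyond leaving it out. Of genes above background 38 had an SD over 0.3. The most spread was TGIF1, a repressor of TGF-beta targets, with 7.21, 7.80 and 6.11, followed by HMGA1, a chromatin protein, with 9.23, 7.77 and 9.22. For TGIF1 array 3 was low and for HMGA1 array 2. The others were NT5C3A, SKIC2, RAC1, TMEM106A, CLIC1, LINC00965, the complement gene CFB and IMMP1L, with SDs of 0.399 to 0.659. The 154 genes whose probe sets carry the highest identifier numbers made up 7 of these 38 (18.4%), TGIF1, HMGA1, SKIC2, RAC1 and CLIC1 among them, and 95 of the 12236 genes above background (0.776%). Of the lists above, these 10 genes touch only complement and acute phase, through CFB.

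**Figure D4:**
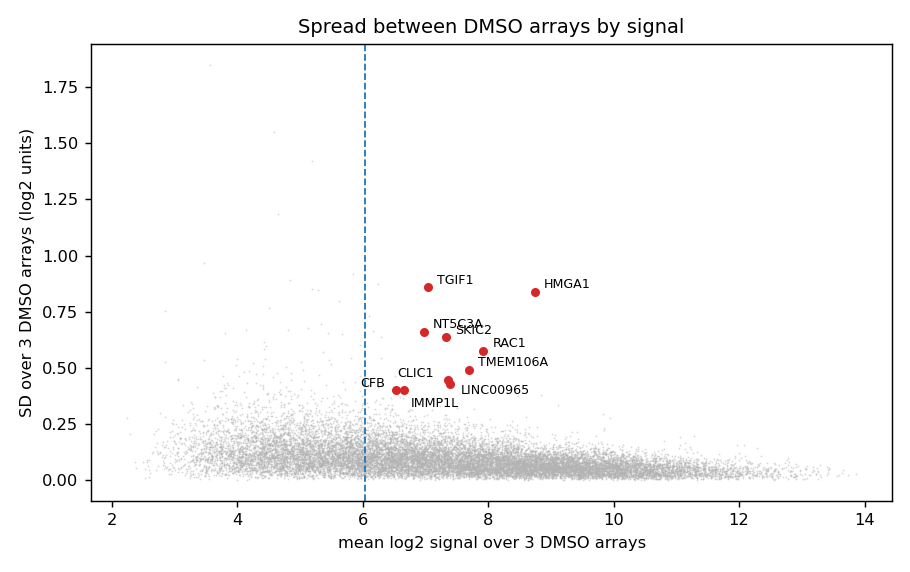
SD of each gene over the 3 DMSO arrays (log2 units) against its mean log2 signal, for 17845 genes (grey). The 10 genes above background with the largest SD are in red, led by TGIF1 (0.859) and HMGA1 (0.839); the dashed line marks the mean background limit, below which the spread is larger.

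Against this baseline the BET inhibitors were compared with DMSO in a limma fit over all 8 arrays, with p-values adjusted over 17845 genes by the Benjamini-Hochberg method and a call at an adjusted p under 0.05. JQ1 changed 4066 genes (22.8%): 10.7% of all genes rose and 12.0% fell. RVX-208 changed 1120 (6.28%): 3.06% of all genes rose and 3.22% fell. The 2 comparisons share the DMSO arrays, and JQ1 was not tested against RVX-208 here. The call rate differed with the baseline signal: with JQ1 3645 of 12236 genes above background changed (29.8%) and 349 of 4997 at background (6.98%). With RVX-208 917 (7.49%) and 157 of them changed. A fold change is compressed at background, so a share near 0 there says little. The RVX-208 count also rested on single arrays, falling to 52 without RVX-208 array 3 and to 81 without DMSO array 3.

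ALB and AFP did not pass the test with either compound. ALB was 0.06 higher with JQ1 (95% interval -0.06 to 0.18, limma adjusted p = 0.465) and 0.04 higher with RVX-208 (-0.07 to 0.14, adjusted p = 0.655). AFP was 0.05 higher with JQ1 (-0.06 to 0.17, adjusted p = 0.514) and 0.04 higher with RVX-208 (-0.07 to 0.14, adjusted p = 0.646). Of the 80 genes in the plasma protein lists, JQ1 raised 1 and lowered 6 (8.75% called). It called 22.8% of all genes and 29.8% of genes above background, as 67 of the 80 were. In the same lists RVX-208 raised 1 and lowered 1 (2.50%, against 6.28% of all genes and 7.49% of genes above background). Of the 80 genes 14 were in the highest 1%, and compression of changes at such high signals was not tested. The gene raised by either compound was F10, a clotting factor, whose call was lost in 10 alternatives for JQ1 and in 11 for RVX-208. Among them MBL2, a lectin that starts complement, gave 9.15, 9.30 and 9.15 in DMSO and 8.65 and 8.68 in JQ1, and fell by 0.54 ± 0.07 (SE, adjusted p = 0.0011). ABCA1, which loads cholesterol onto lipoproteins, gave 10.02, 10.01 and 9.94 in DMSO and 9.28 and 9.43 in JQ1, and fell by 0.64 ± 0.06 (SE, adjusted p = 0.00025). With RVX-208 it fell by 0.44 ± 0.06 (SE, adjusted p = 0.0115), a call that was lost without RVX-208 array 3.

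Hepatocyte transcription factors and Wnt targets had the highest shares of called genes with JQ1, 57.9% and 61.1% against 22.8% of all genes. JQ1 lowered 9 and raised 2 of 19 factors, with a median change of -0.14 against -0.04 for all genes. The raised factors were HHEX (adjusted p = 0.0282) and NR0B2 (adjusted p = 0.0467) by the limma fit, and each call was lost in 7 alternatives. PROX1, a factor of hepatoblasts, gave 9.27, 9.30 and 9.06 in DMSO and 7.96 and 8.24 in JQ1, so that it fell by 1.11 ± 0.10 (SE, adjusted p = 0.00016), and no JQ1 array reached a DMSO array. HNF4G fell from 7.51 to 6.51. Of 18 Wnt targets JQ1 lowered 8 and raised 3. DKK1 gave 10.65 and 10.62 against 11.93, 11.83 and 11.83, so that it fell by 1.23 ± 0.06 (adjusted p = 1.6e-05). RNF43, which removes Wnt receptors, fell by 0.79, while OAT, an ornithine enzyme, rose by 0.62. LGR5 rose by 0.26 (adjusted p = 0.0124), but its call was lost when either JQ1 array 2 or JQ1 array 1 was left out.

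Of 25 fetal genes JQ1 lowered 6 and raised 2 (32.0% called), while of all genes it lowered 12.0% and raised 10.7%. DKK1 and LIN28B fell, LIN28B from 9.68, 9.81 and 9.75 to 8.69 and 9.02. SPINK1, weak in DMSO at 6.18, 6.11 and 6.15, rose to 6.73 and 6.71 (0.57 ± 0.07 SE, adjusted p = 0.00083). PEG10 was 0.07 higher (adjusted p = 0.337), GPC3 0.03 higher (adjusted p = 0.704) and DLK1 0.04 lower (adjusted p = 0.611) by the limma fit, so the strongest fetal signals did not pass the test.

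Bile acid and hormone genes fell in part. Of 19 bile acid genes, JQ1 lowered 7 and raised 0, where it lowered 12.0% of all genes. RVX-208 lowered 3 and raised 0, where it lowered 3.22% of all genes, and its call of SLC51B, a bile acid exporter subunit, was lost in 5 alternatives. BAAT, which joins bile acids to glycine or taurine, gave 6.57, 6.73 and 6.54 in DMSO and 5.56 and 5.63 in JQ1, and it fell (adjusted p = 5.3e-05). Both JQ1 arrays lay below 5.93, the mean background limit over all 8 arrays, so BAAT went from above the limit to below it and the size of its change is not given. AKR1D1, a reductase of bile acid synthesis, gave 8.64, 8.54 and 8.61 in DMSO and 8.16, 8.14 and 8.07 in RVX-208, so that it fell by 0.48 ± 0.05 (adjusted p = 0.0068). AKR1D1 was the only gene named by rule for RVX-208 whose call held under every alternative run. Liver hormone genes fell in 6 of 20 cases with JQ1 and rose in 0, against 12.0% and 10.7% of all genes: EPO went from 8.76, 8.64 and 8.79 to 7.60 and 7.58, and HAMP, the iron hormone hepcidin, from 9.77 to 8.79 on average. ADH4, a retinol and alcohol dehydrogenase, fell by 0.95 ± 0.06 with JQ1 (adjusted p = 4.8e-05).

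With JQ1 10.7% of all genes rose and 12.0% fell, and the growth and lipid lists are given beside these shares. Of 30 replication and mitosis genes JQ1 raised 7 and lowered 6, among them CCNE2, which starts S phase, up from 7.81, 7.98 and 7.87 to 8.62 and 8.70. Of 22 growth factor genes it lowered 7 and raised 1. EREG, an EGF receptor ligand, gave 7.80, 8.0 and 7.96 in DMSO and 6.39 and 5.67 in JQ1, and it fell (adjusted p = 0.00018), with the 2 JQ1 arrays apart from each other and the lower of them below the background limit. HBEGF, another ligand of that receptor, was the member that rose, by 0.87 ± 0.07. IDI1 of sterol synthesis rose from 10.20, 10.20 and 10.00 to 11.08 and 11.01, in a list of which 5 of 21 rose and 1 fell. Of the markers of other cell types JQ1 called 3 of 12 for bile duct, 1 of 14 for stellate, 1 of 14 for endothelial and 2 of 11 for red cells, and 0 of 15 for macrophages and 0 of 13 for lymphocytes, by the limma fit. JQ1 called 29.8% of all genes above background and 6.98% of those at background, and these marker lists hold genes of both kinds.

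**Figure D5:**
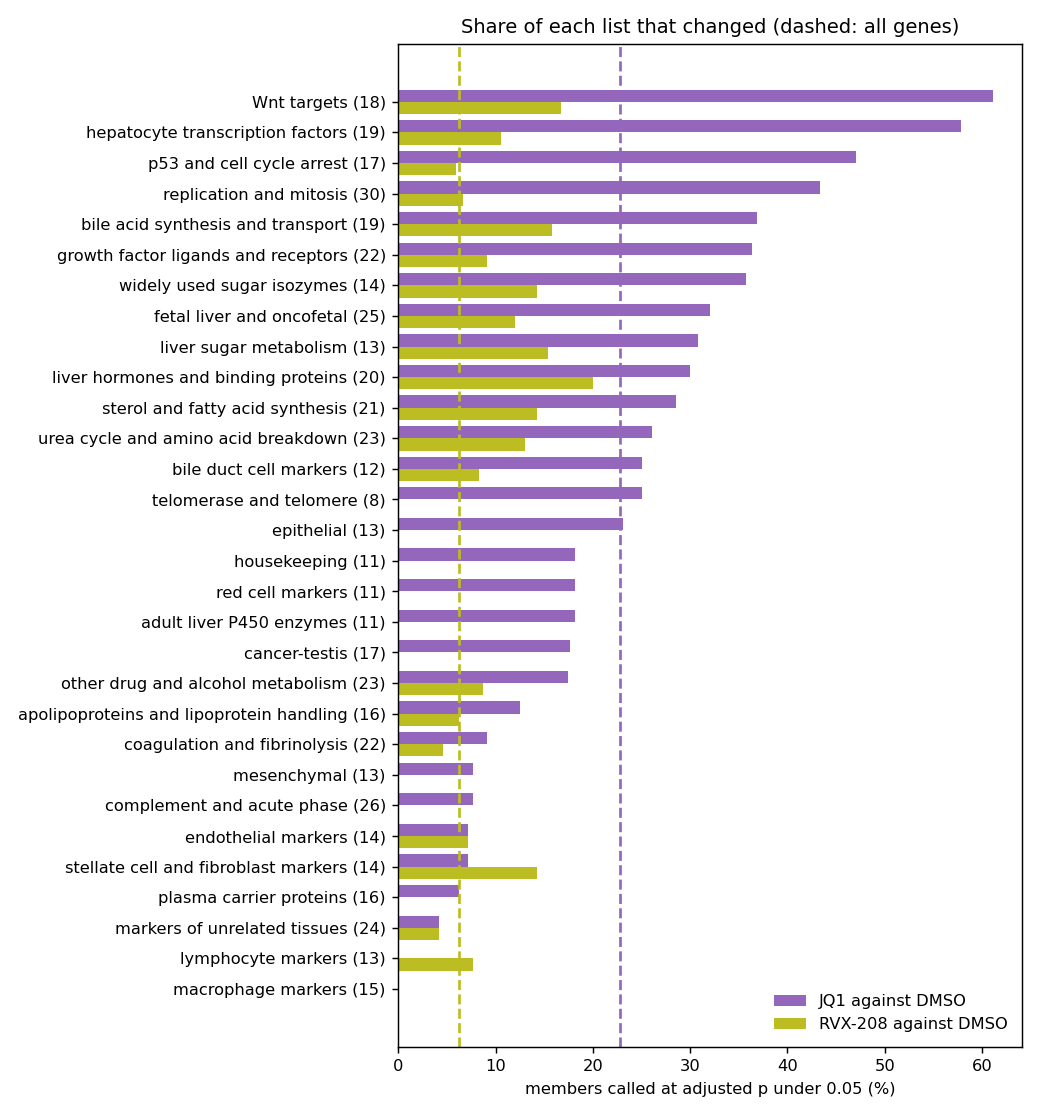
Share of the members of each of 30 lists (sizes in brackets) called at an adjusted p under 0.05 in JQ1 (purple) and RVX-208 (olive) against DMSO. Dashed lines mark the share over all 17845 genes, 22.8% and 6.28%; Wnt targets (61.1% with JQ1) are at the top, and the plasma carrier list (6.25%) is near the bottom.

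Few genes crossed the background limit within 4 h. By a common limit of 5.93, 4713 genes were below it in every DMSO array and 12518 above it in every DMSO array. With JQ1, 41 of the 4713 were above it in both JQ1 arrays, 34 of them called, and 81 of the 12518 were below it in both, 50 of them called. With RVX-208 17 (10 called) and 61 (29 called) crossed in all 3 arrays. Chosen after their values were seen, SLFN5, a Schlafen family gene, went from 5.65, 5.85 and 5.87 in DMSO to 7.71 and 8.0 with JQ1. MAB21L3 went from 7.43, 7.53 and 7.46 to 5.56 and 5.72. No size is given for these changes, since 1 side of each lies below the limit.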

How the data were processed

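Total RNA of HepG2 cells was hybridised to Human Gene 1.0 ST arrays. The deposited value table holds log2 signals per probe set; the submitters' processing notes name RMA, R 2.15.3 and limma 3.14.4. The authors' deposited table of fold changes also holds an F score, a p-value and an adjusted p-value. It served as a check of the scale: its log2 fold changes matched differences of group means within 0.001 for 19815 (JQ1) and 19816 (RVX-208) of 19816 probe sets. The filter that led to 19816 probe sets is not given in the sources used here.

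Of the probe sets 17859 had 1 gene symbol, 997 several and 960 none; the last 2 kinds were left out. For 14 genes with several probe sets the highest was kept, which left 17845 genes, and 17835 gene identifiers matched RefSeq. RMA pulls dim signals towards background and its quantile step makes array distributions alike. Genes were ranked by mean and compared with the background limits given above. The lists name 584 different genes, of which 508 were ranked. The members and lists were chosen with earlier results of these data known.

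Fits used limma 3.58.1 in R 4.3.3 (lmFit with a mean per group, eBayes, two-sided, 8.55 degrees of freedom); tables and plots used Python 3.11.15, pandas 2.3.3 and matplotlib 3.10.9. The fits were tried on 10 simulated sets of 17845 genes, with 200 genes changed and independent normal noise in each array. There the JQ1 fit recovered 27.8% of changes of 0.3, 74.0% of 0.6 and 94.7% of 1 log2 unit, with 4.81% false calls. The RVX-208 fit recovered 34.0%, 84.9% and 95.9%, with 4.22% false. More genes were called in the real data, and noise shared between genes was not simulated. The rates may therefore not hold for the real comparisons. Genes named are the 25 highest, up to 4 highest and 4 lowest of each list, the 10 most spread, the albumin family, and up to 2 called members per list, direction and compound. AHSG, ASL, ASS1, AXIN2, CPS1, CYP2E1, CYP7A1, DLK1, FGG, ITIH1, ITIH4, LIN28A, MAB21L3, MKI67, MTTP, RPS3A, SLC10A1 and SLFN5 were added after their values were seen. No other column of per-sample values was present.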

Additional observations from a re-analysis of the deposited data

How the results depend on the processing

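The count of genes above background followed the limit. It was 12236 with the olfactory receptor limit, 7590 with a limit from markers of unrelated tissues and 5951 with the stricter limit, which was added after the data were seen; leaving out a DMSO array gave 12294 to 12401. With the unrelated tissue limit, members above background were 12 of complement and acute phase, 1 of adult P450, 7 of liver sugar, 7 of bile acid, 1 of cancer-testis, 5 of mesenchymal, 2 of stellate cell, 2 of macrophage, 1 of endothelial, 0 of lymphocyte and 1 of red cell genes. With the stricter limit they were 11 of complement and acute phase, 0 of adult P450, 10 of other drug and alcohol, 12 of urea and amino acid, 6 of liver sugar, 5 of bile acid, 8 of liver hormone, 9 of p53, 11 of growth factor, 0 of cancer-testis, 3 of mesenchymal, 1 of stellate cell, 2 of macrophage, 0 of endothelial, lymphocyte and red cell genes, and 1 of unrelated tissue genes. The 99th percentile of olfactory receptors left 1 cancer-testis, 5 stellate cell, 3 lymphocyte and 4 unrelated tissue genes, and the 90th gave 6 red cell and 14 unrelated tissue genes. The JQ1 count ranged from 2565 to 3788 when 1 array was left out, with 2572 without JQ1 array 1 and 2565 without JQ1 array 2. The RVX-208 count ranged from 52 to 756: it was 705, 310 and 81 without DMSO arrays 1, 2 and 3, and 291, 151 and 52 without RVX-208 arrays 1, 2 and 3. It was 2248 with eBayes with a trend and 2161 among genes above background only. With the replicate number as a block, JQ1 called 3057 genes and RVX-208 80. Deviations of same-numbered arrays from their group means correlated from -0.150 to 0.076. Within groups of 2 or 3 arrays such deviations depend on each other, so the check cannot settle whether the numbers pair the samples. Of 73 genes followed for JQ1, 16 lost their call with the replicate block, and of 36 for RVX-208, 30 did. The other 57 and 6 kept their result, and these include ALB and AFP, which had no call to lose. No call changed its direction under any alternative run. Probe sets near background limit which low genes can be ranked or tested.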
